A study of Mus musculus with 12 samples.

Results

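Heme is broken down, moved between compartments and held by a small group of proteins, and 10 of their genes were followed here in mouse kidney: Hmox1, Hmox2, Blvra, Blvrb, Flvcr1, Flvcr2, Slc48a1, Slc46a1, Hebp1 and Pgrmc1. They were picked by name from the 43346 genes listed, with no threshold on their values but with earlier results of these data known. Of these genes, 8 were found by symbol, while Flvcr1 and Flvcr2 were found by identifier under their older symbols, Mfsd7b and Mfsd7c. All 10 were among the 17470 genes with enough counts to be tested.

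Kidney RNA was sequenced in 12 libraries, 6 from sham mice (1 to 6) and 6 from mice with HP-AKI (7, 8, 9, 11, 12 and 13), all at day 1. AKI is acute kidney injury, and HP-AKI in this field stands for the heme protein-induced form, although the labels do not spell out the letters, the agent or its dose. Strain, sex, age and what the sham procedure was are not given in the sources used here, and nothing says that the libraries come from separate animals, so the p-values measure the spread between these libraries. The RNA was total RNA of kidney tissue, so fewer cells of a type and less RNA per cell cannot be told apart.

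Heme oxygenase, encoded by Hmox1 (inducible) and Hmox2 (constitutive), opens the heme ring and releases iron, carbon monoxide and biliverdin. Biliverdin reductases then make bilirubin, which is conjugated and exported, while the iron is stored in ferritin or exported. In the kidney, filtered heme proteins are taken up by the proximal tubule, and loss of Hmox1 is known to worsen kidney injury by heme proteins.

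Before the values, some facts of the libraries bear on all of them. The totals were 35201197 to 41951129 counts in sham and 31624522 to 40630917 in HP-AKI, and levels are given as CPM, counts-per-million of the library total after TMM scaling. The first principal component, with 81.3% of the variance, separated the groups. On the second, with 7.85%, sham 1 (-29.2), sham 2 (-45.1) and HP-AKI 8 (-45.6) lay farthest toward 1 end. Within sham the other 4 libraries lay at 11.5 to 25.1, so sham 1 and sham 2 were apart from them. Within HP-AKI, HP-AKI 9 (-16.3) came next after HP-AKI 8, and HP-AKI 13 (31.3) lay at the other end. Of the 10 genes, 6 were lower in both sham 1 and sham 2 than in the other 4 sham libraries (27.9% of tested genes were), and 6 had their lowest HP-AKI value in HP-AKI 8 (31.6% of tested genes did). Pgrmc1 was higher in both sham 1 and sham 2 than in the other 4 (32.5% of tested genes were). Without sham 1, sham 2 and HP-AKI 8 the same number of the 10 genes passed the test in each direction, 4 and 4.

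Which of these genes differed at day 1 was read from the comparison of the groups. Hmox1, Blvrb, Flvcr1 and Slc48a1 were higher in HP-AKI, Blvra, Flvcr2, Slc46a1 and Hebp1 were lower, and Hmox2 and Pgrmc1 did not pass the test. Thus 8 of 10 passed an adjusted p of 0.05 in edgeR's quasi-likelihood test, where 72.8% of all tested genes did. In the 2 directions, 4 of 10 were higher against 37.7% of tested genes, and 4 of 10 lower against 35.2%. In the same 8 genes the 6 HP-AKI values did not overlap the 6 sham values, which held for 52.4% of tested genes (26.7% higher, 25.8% lower). The shares of calls therefore lay near those of the whole table. The median log2 fold change of the 10 genes was -0.04, against 0.04 for all tested genes, and the median size of the change, whatever its sign, was 1.23 against 0.67.

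**Figure D1:**
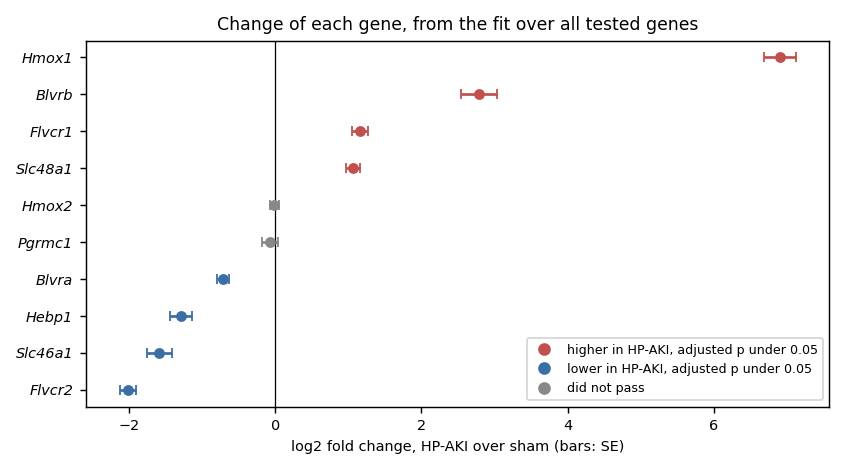
Log2 fold change of each gene in HP-AKI over sham on the horizontal axis, with its SE as a bar, from the fit over all tested genes. Hmox1 stood at 6.91 and Flvcr2 at -2.02, and the bars of Hmox2 and Pgrmc1 reach 0.

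Hmox1 (ENSMUSG00000005413, GRCm38 chromosome 8, 75093591 to 75100596) encodes the inducible heme oxygenase. Its level in sham had a lowest value of 15.3, a median of 24.6 and a highest value of 27.4 CPM. In HP-AKI the lowest value was 2125, the median 2546 and the highest 3691 CPM. Every HP-AKI library thus lay far above every sham library, and within sham the libraries 1 and 2 were the low ones. The mean rose from 22.3 ± 5.46 (SD, n = 6) to 2675 ± 545 CPM (SD, n = 6), which is 120.1-fold. The log2 fold change was 6.91 ± 0.21 (SE), with an adjusted p of 1.57e-12 (edgeR). These means rest on 502 to 1122 counts a library in sham and on 81038 to 120616 in HP-AKI, so that this 1 gene took 0.00217% of the counts of sham and 0.277% of those of HP-AKI. By fitted change Hmox1 was number 54 among the rises of the 17470 tested genes. Without sham 1, sham 2 and HP-AKI 8 the means differed 106.5-fold.

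Hmox2 (ENSMUSG00000004070, chromosome 16, 4726361 to 4766742) encodes the constitutive heme oxygenase. It ran from 80.0 over a median of 81.4 to 83.9 CPM in sham and from 75.3 over 79.0 to 90.1 CPM in HP-AKI. The HP-AKI values spread on either side of the narrow sham range, and the groups overlapped. The log2 fold change was -0.01, with a 95% interval from -0.15 to 0.13, and the adjusted p was 0.871 (edgeR). The coefficient of variation between libraries was 1.98% in sham and 6.91% in HP-AKI. Of the 2217 exon bases of Hmox2, 892 (40.2%) are shared with Cdip1, a gene on the opposite strand with a mean of 86.8 CPM in sham and 74.7 CPM in HP-AKI. The library kit does not mark strand and how shared bases were counted is not given in the sources used here, so the level of Hmox2 carries this uncertainty.

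Within each library, the ratio of the isozymes does not depend on how libraries are scaled. Per kilobase of the gene lengths listed with the counts, Hmox1 stood at 0.272 of Hmox2 in sham and at 33.4 times Hmox2 in HP-AKI. On the log2 scale the ratio rose by 6.94 ± 0.17 (SE), with an exact permutation p of 0.00216 over 924 regroupings, two-sided. This is the smallest p that 6 against 6 libraries can give, and the value adjusted over the 6 ratios tested here was the same. For Hmox1 to Hmox2 it mostly restates the separation of Hmox1. The ratios of Blvrb to Blvra, Flvcr1 to Flvcr2, Slc48a1 to Slc46a1 and Hebp1 to Hebp2 pair a gene that rose with a gene that fell. Both genes were without overlap, so the smallest p was fixed by them and adds no test. No share over all pairs of genes is given beside these ratios. The share of Hmox1 in the per-kilobase sum of both isozymes went from 21.7 ± 4.06% (SD, n = 6) to 97.1 ± 0.392% (SD, n = 6). The sum itself had a mean of 47.1 CPM per kilobase in sham and 1274 in HP-AKI, 27.0 times as much. With exon lengths of GENCODE vM21 (1751 bases for Hmox1 in place of 2161), an alternative chosen after the data were seen, the shares were 25.4% and 97.6%.

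**Figure D2:**
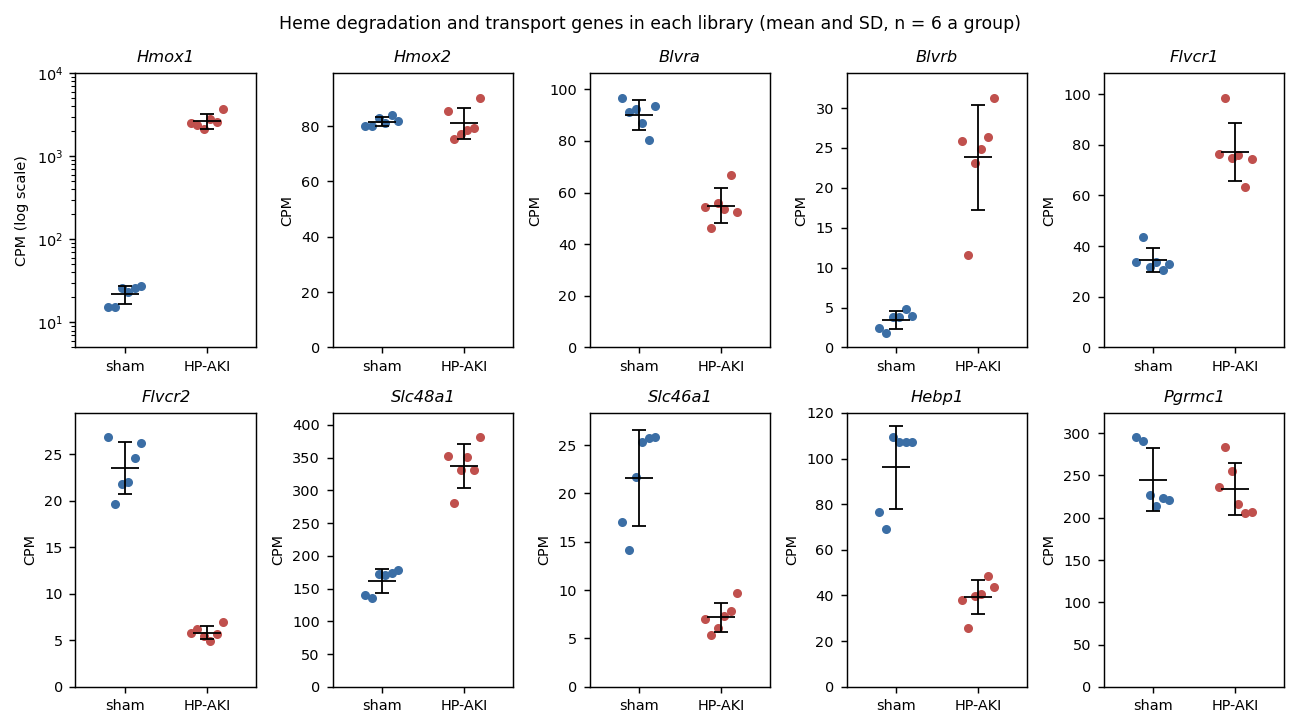
CPM of each of the 10 genes in every library, with 1 point a library and the mean and SD of the 6 libraries of each group; the axis of Hmox1 is logarithmic and the others start at 0. In 8 panels the groups are apart, and in those of Hmox2 and Pgrmc1 they overlap.

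The biliverdin reductases moved in opposite directions. Blvra (ENSMUSG00000001999, chromosome 2, 127070665 to 127097084), the reductase of the main biliverdin isomer, ran from 80.2 over a median of 91.6 to 96.5 CPM in sham and from 46.2 over 54.1 to 66.8 CPM in HP-AKI. Each HP-AKI library was below each sham library, and HP-AKI 12 was the nearest to the sham values. Its mean fell 1.64-fold, from 90.1 ± 5.75 to 54.9 ± 6.72 CPM (SD, n = 6 each), with a log2 fold change of -0.71 ± 0.08 (SE) and an adjusted p of 1.96e-06 (edgeR).

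Blvrb (ENSMUSG00000040466, chromosome 7, 27447978 to 27466144) encodes the reductase of the beta isomer, which also reduces flavins and is abundant in red blood cells. It ran from 1.85 over a median of 3.80 to 4.83 CPM in sham and from 11.6 over 25.3 to 31.2 CPM in HP-AKI. The lowest HP-AKI value, that of HP-AKI 8, was apart from the other 5, which began at 23.1 CPM, yet above all sham values. The mean rose 6.93-fold, from 3.44 ± 1.09 to 23.8 ± 6.59 CPM (SD, n = 6 each), with a log2 fold change of 2.79 ± 0.25 (SE) and an adjusted p of 7.87e-08 (edgeR). None of the 5 tested red blood cell markers passed the test, where 72.8% of all tested genes did. Their spread in sham was wide, with Hbb-bs at 159.2 ± 176.0 CPM (SD, n = 6). The log2 fold change of Hbb-bs was -0.51 ± 0.47 (SE), so the test could not tell a change of that size from none. The summed level of the matched markers ran from 101.7 over a median of 158.1 to 1002 CPM in sham. In HP-AKI this sum ran from 137.0 over 180.1 to 352.3 CPM. The part of red blood cells in the rise of Blvrb was not tested.

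The log2 ratio of Blvrb to Blvra, per kilobase, was -3.98 in sham and -0.47 in HP-AKI, a rise of 3.52 ± 0.29 (SE) with an exact permutation p of 0.00216. Blvrb made up 6.25 ± 2.17% (SD, n = 6) of the sum of both reductases in sham and 42.1 ± 6.79% (SD, n = 6) in HP-AKI. The sum had nearly equal means, 39.3 CPM per kilobase in each group, at 27.1 to 46.0 across the HP-AKI libraries and 36.2 to 41.2 across the sham libraries. The length listed for Blvrb is 1414 bases, while the exons of GENCODE vM21 cover 2782. With those exon lengths the share went from 3.29% to 27.2% and the sum from 38.1 to 31.0 CPM per kilobase. The equal sums thus depend on the length used, while the share of Blvrb was higher in HP-AKI with either length.

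Set against each other per kilobase, the heme oxygenase sum was 1.20 ± 0.113 (SD, n = 6) times the biliverdin reductase sum in sham and 32.9 ± 6.69 (SD, n = 6) times that sum in HP-AKI. With the vM21 exon lengths the ratios were 1.31 and 51.0. Against Por, the cytochrome P450 reductase that passes electrons to heme oxygenase, the heme oxygenase sum went from 1.34 ± 0.320 to 25.6 ± 5.03 (SD, n = 6 each). These ratios were formed after the data were seen and were not tested. They compare RNA and not enzyme. The reductase sum joins genes for different biliverdin isomers, and Blvra, that of the main isomer, fell 1.64-fold.

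Sequences just before the start of transcription are shown for the reductases, since the members of this pair moved in opposite directions. They are the 250 bases upstream of the RefSeq start on the plus strand of GRCm38.p6, chr7:27447728-27447977 for Blvrb and chr2:127070407-127070656 for Blvra. Capitals mark matches, on either strand, to 8 short motifs: TGACNNNGC (antioxidant response element core), TGANTCA (AP-1), CACGTG (E-box), ACGTG (hypoxia response element core), GAANNTTC (heat shock element), CCAAT (the box of that name), TATAAA (the core promoter box read by TBP) and GGGCGG (GC box). A match is a description of letters, not a bound site.
Blvrb: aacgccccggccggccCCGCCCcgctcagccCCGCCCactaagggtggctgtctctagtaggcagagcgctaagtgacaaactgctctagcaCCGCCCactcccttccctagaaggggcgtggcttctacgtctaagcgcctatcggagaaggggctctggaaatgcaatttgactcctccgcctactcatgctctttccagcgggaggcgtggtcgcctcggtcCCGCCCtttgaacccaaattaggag
Blvra: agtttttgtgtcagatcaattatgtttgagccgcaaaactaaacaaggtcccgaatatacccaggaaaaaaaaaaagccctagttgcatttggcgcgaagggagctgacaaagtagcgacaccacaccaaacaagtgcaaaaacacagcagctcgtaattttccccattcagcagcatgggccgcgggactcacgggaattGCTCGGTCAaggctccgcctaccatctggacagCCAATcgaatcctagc
The Blvrb window holds 4 GC boxes, all on the reverse strand, and none of the other motifs. The Blvra window holds an antioxidant response element core on the reverse strand, 49 bases before the start, and a CCAAT box at 16 bases. Of the 32851 RefSeq windows of this length, 10.2% hold the antioxidant response element core, 33.8% CCAAT and 32.7% a GC box. The AP-1, heat shock and TATAAA motifs, in 6.75%, 6.69% and 12.4% of windows, had no match in the windows printed here.

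The Flvcr transporters also moved in opposite directions. Flvcr1 (ENSMUSG00000066595, chromosome 1, 191005847 to 191026158) is described as a heme exporter of the plasma membrane and also as a choline transporter. It ran from 30.6 over a median of 33.3 to 43.8 CPM in sham and from 63.5 over 75.4 to 98.4 CPM in HP-AKI. The groups were apart, and sham 2 and HP-AKI 8 were each well above the other libraries of their group. The mean rose 2.24-fold, from 34.4 ± 4.73 to 77.2 ± 11.4 CPM (SD, n = 6 each), a log2 fold change of 1.16 ± 0.11 (SE) with an adjusted p of 1.42e-07 (edgeR). An antisense gene, A230020J21Rik, shares 809 of its exon bases (15.6%) and had a mean of 0.0095 CPM in sham and of 0 CPM in HP-AKI.

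Flvcr2 (ENSMUSG00000034258, chromosome 12, 85746539 to 85813585), a related transporter described as a heme importer and also as a choline transporter, ran from 19.6 over a median of 23.3 to 26.8 CPM in sham. In HP-AKI it ran from 4.87 over 5.73 to 6.97 CPM, so that the highest HP-AKI value was well under the lowest sham value. The mean fell 4.04-fold, from 23.5 ± 2.83 to 5.82 ± 0.713 CPM (SD, n = 6 each), a log2 fold change of -2.02 ± 0.11 (SE) with an adjusted p of 4.15e-10 (edgeR). It was number 866 among the falls of the tested genes.

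Per kilobase Flvcr1 was at 0.971 of Flvcr2 in sham, with overlapping ranges, and Flvcr1 stood at 8.77 times Flvcr2 in HP-AKI. The log2 ratio rose by 3.17 ± 0.17 (SE), with an exact permutation p of 0.00216. Flvcr1 was 49.3 ± 5.58% (SD, n = 6) of their sum in sham and 89.7 ± 1.57% (SD, n = 6) in HP-AKI, while the mean of the sum differed 1.23-fold, 13.5 CPM per kilobase in sham and 16.6 in HP-AKI.

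The upstream windows of this pair are given in the same way, chr1:191026191-191026440 on the minus strand for Flvcr1 and chr12:85746289-85746538 on the plus strand for Flvcr2, with each strand read toward the gene.
Flvcr1: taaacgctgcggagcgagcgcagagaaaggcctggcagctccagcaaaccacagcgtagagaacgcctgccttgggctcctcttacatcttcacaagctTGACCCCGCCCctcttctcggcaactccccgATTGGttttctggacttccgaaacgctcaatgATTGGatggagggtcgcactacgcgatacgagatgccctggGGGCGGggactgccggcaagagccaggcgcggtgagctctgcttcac
Flvcr2: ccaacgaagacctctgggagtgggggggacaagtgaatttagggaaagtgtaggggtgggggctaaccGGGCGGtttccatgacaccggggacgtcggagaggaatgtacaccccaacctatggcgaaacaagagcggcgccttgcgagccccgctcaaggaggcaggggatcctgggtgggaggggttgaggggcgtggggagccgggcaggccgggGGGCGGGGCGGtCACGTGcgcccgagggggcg
Flvcr1 has an antioxidant response element core 151 bases before the start, which overlaps a reverse GC box, then a pair of reverse CCAAT boxes at 120 and 88 bases and a GC box at 47 bases. Flvcr2 has an E-box at 20 bases, which contains the letters of the hypoxia response element core on both strands, and 3 GC boxes, of which the last pair overlap. An E-box is in 6.02% of all windows and the hypoxia response element core in 16.6%. The RefSeq promoter table used here gave windows for 8 of the 10 genes, not for Hmox1 and Slc48a1, and the starts of Hmox2 lie 15252 bases or more inside the listed gene. Among the other 7 windows the antioxidant response element core was in 3 (Blvra, Flvcr1 and Pgrmc1), one of a gene that fell, one of a gene that rose and one of a gene that did not pass.

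Of the other carriers, Slc48a1 (ENSMUSG00000081534, chromosome 15, 97784355 to 97792692), or HRG1, moves heme out of lysosomes into the cytosol. It ran from 135.9 over a median of 171.3 to 177.6 CPM in sham and from 280.3 over 341.0 to 380.8 CPM in HP-AKI. The low values were those of sham 1 and sham 2 in one group and HP-AKI 8 in the other, and the groups did not overlap. The mean rose 2.09-fold, from 161.8 ± 18.5 to 337.7 ± 33.5 CPM (SD, n = 6 each), a log2 fold change of 1.06 ± 0.09 (SE) with an adjusted p of 6.49e-08 (edgeR).

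Slc46a1 (ENSMUSG00000020829, chromosome 11, 78465697 to 78472059) encodes the proton-coupled folate transporter, also described as a low-affinity heme carrier. It ran from 14.1 over a median of 23.5 to 25.8 CPM in sham and from 5.33 over 7.16 to 9.68 CPM in HP-AKI. Again sham 1 and sham 2 were the lowest of sham and HP-AKI 8 the lowest of HP-AKI, without overlap of the groups. The mean fell 2.99-fold, from 21.6 ± 5.0 to 7.21 ± 1.5 CPM (SD, n = 6 each), a log2 fold change of -1.58 ± 0.17 (SE) with an adjusted p of 8.21e-07 (edgeR). Within libraries Slc48a1 stood at 8.74 times Slc46a1 per kilobase in sham and 54.2 times in HP-AKI, a rise of the log2 ratio by 2.63 ± 0.11 (SE) with an exact permutation p of 0.00216. Against the heme oxygenase sum, Slc48a1 went the other way, from 1.27 ± 0.0681 to 0.10 ± 0.0138 per kilobase (SD, n = 6 each), a ratio that was not tested.

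Hebp1 (ENSMUSG00000042770, chromosome 6, 135137519 to 135168215) encodes a cytosolic heme-binding protein that is also the source of a chemoattractant peptide. In sham it ran from 68.9 over a median of 107.3 to 109.3 CPM, with 4 libraries close together and sham 1 and sham 2 below them at 76.8 and 68.9 CPM. In HP-AKI it ran from 25.7 over 40.1 to 48.4 CPM, all under the sham values. The mean fell 2.45-fold, from 96.2 ± 18.2 to 39.3 ± 7.61 CPM (SD, n = 6 each), a log2 fold change of -1.29 ± 0.15 (SE) with an adjusted p of 1.74e-06 (edgeR). Its relative Hebp2 rose from 2.04 ± 0.168 to 3.62 ± 0.524 CPM, and the log2 ratio of Hebp1 to Hebp2 per kilobase fell by 2.11, with an SE of 0.21 and an exact permutation p of 0.00216.

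Pgrmc1 (ENSMUSG00000006373, chromosome X, 36598206 to 36606079) encodes a heme-binding membrane protein of the endoplasmic reticulum that partners cytochromes P450. It ran from 213.8 over a median of 225.4 to 295.0 CPM in sham and from 206.0 over 226.7 to 283.2 CPM in HP-AKI. The ranges nearly coincided, and here sham 1, sham 2 and HP-AKI 8 were the highest of their groups. The log2 fold change was -0.07, with a 95% interval from -0.31 to 0.18 and an adjusted p of 0.591 (edgeR). The ratio to its relative Pgrmc2 had less spread, and its log2 value rose by 0.23 ± 0.05 (SE), from 2.73 to 2.96, without overlap of the groups and with an exact permutation p of 0.00216. Pgrmc2 fell from 64.1 to 52.3 CPM (log2 fold change -0.29, adjusted p 0.0120 in edgeR), but its call was lost with library size alone (adjusted p 0.0885 in edgeR).

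**Figure D3:**
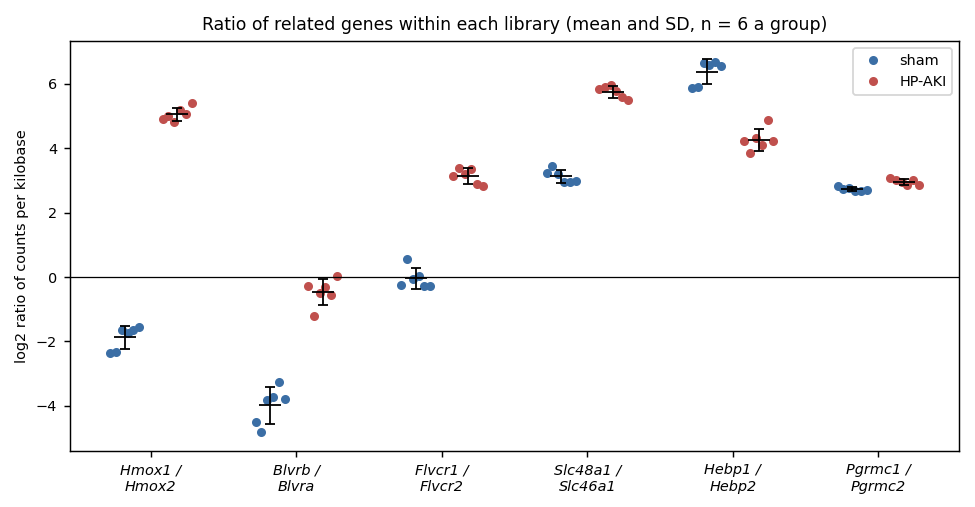
Log2 ratio of counts per kilobase between related genes within each library, 1 point a library, with the mean and SD of 6 libraries a group. In each of the 6 ratios the groups are apart, by 6.94 for Hmox1 to Hmox2 and by 0.23 for Pgrmc1 to Pgrmc2. Except for Pgrmc1 to Pgrmc2, this repeats the separation of the single genes.

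The order of the genes by level differed between the groups. Per kilobase of the listed lengths, the order of the means in sham was Pgrmc1 (132.0 CPM per kilobase), Hebp1 (90.7), Slc48a1 (60.1), Blvra (36.8), Hmox2 (36.8), Hmox1 (10.3), Slc46a1 (7.01), Flvcr2 (6.84), Flvcr1 (6.65) and Blvrb (2.43). Neighbours whose ranges over the 6 libraries overlapped were Hebp1 and Slc48a1, Blvra and Hmox2, and the run from Hmox1 to Flvcr1. In HP-AKI the order was Hmox1 (1238), Pgrmc1 (126.0), Slc48a1 (125.6), Hebp1 (37.1), Hmox2 (36.5), Blvra (22.5), Blvrb (16.9), Flvcr1 (14.9), Slc46a1 (2.34) and Flvcr2 (1.69). There Pgrmc1 and Slc48a1, Hebp1 and Hmox2, the run from Blvra to Flvcr1, and Slc46a1 and Flvcr2 overlapped. Hmox1 went from place 6 of the 10 to place 1, and among all 17470 tested genes from place 5151 to place 13 per kilobase. Hebp1 is listed at 1061 bases against 3711 exon bases in vM21. With the vM21 lengths it stood at place 5 in sham and place 7 in HP-AKI, with Blvrb at place 8 in HP-AKI.

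**Figure D4:**
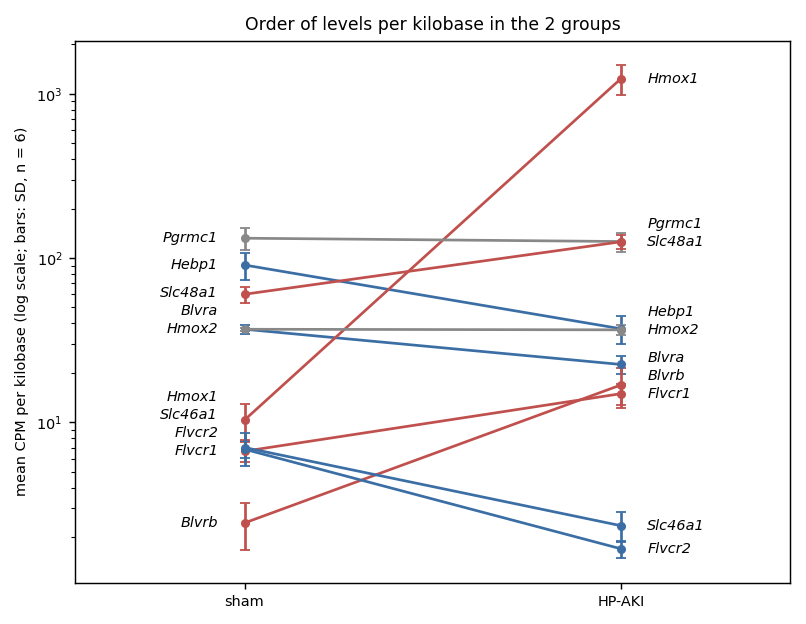
Mean CPM per kilobase of the listed gene length on a logarithmic axis, with the SD of 6 libraries, for each gene in sham and in HP-AKI, joined by a line. The line of Hmox1 climbs from 10.3 to 1238 and crosses those of 5 genes, and the lines of Flvcr1 and Flvcr2 part from nearly the same level.

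Among the HP-AKI libraries alone, the level of Hmox1 was set against that of each of the other 9 genes. None of the 9 relations passed after adjustment, with 0.294 as the lowest adjusted p for Pearson's r over 720 orders (exact permutation). Slc46a1 had the strongest relation, with r of 0.87 (exact permutation p 0.0333) and rho of 0.886 (exact permutation p 0.0333), and r was 0.775 without HP-AKI 9 and HP-AKI 13, the libraries farthest from the median of Hmox1. For Hmox2 r was 0.78 (exact permutation p 0.0653) and rho 0.714 (exact permutation p 0.136), but r without these 2 libraries was 0.132, so that relation rests on them. For Flvcr2 r was 0.53 (exact permutation p 0.263) and rho 0.20 (exact permutation p 0.714). Without these 2 libraries r was -0.95, with an adjusted p of 0.375 (exact permutation). The values of r without them rest on 4 libraries, and none passed after adjustment.

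Over all 12 libraries, the genes whose log2 CPM was most like that of Hmox1 were Atf4 (Pearson's r 0.9988), Tes (0.9986), Anxa7 (0.9983), Vasp (0.9983) and Ppp4r1 (0.9980). Atf4 encodes a transcription factor of the integrated stress response, and its mean went from 55.9 to 289.3 CPM. The difference between the groups sets most of such a likeness, and of the 11685 genes whose mean reached 5 CPM, 20.4% had an r over 0.9 with Hmox1.

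The regulators of Hmox1 and heme sensors formed a list of 11 genes, of which 6 rose, 2 fell and 3 did not pass, with a median log2 fold change of 0.53 and 5 to 7 called higher over 20 alternatives. All tested genes were called higher in 37.7%, lower in 35.2% and in either direction in 72.8%, so that this list's 8 of 11 lay near the whole table. The small Maf proteins pair with NRF2 or BACH1 on antioxidant response elements. Maff rose from 1.87 ± 0.481 to 123.1 ± 11.4 CPM (SD, n = 6 each), a log2 fold change of 6.04 ± 0.15 (SE), Mafk from 18.1 to 103.3 CPM (2.51 ± 0.14) and Mafg by 0.80. Bach1, the heme-sensing repressor of Hmox1, rose by 1.31 on the log2 scale, and Nfe2l2, which encodes the activator NRF2, by 1.24. Keap1, which marks NRF2 for breakdown, was called higher at 0.40 (adjusted p 0.0318 in edgeR). This call was lost when sham 1, sham 2, HP-AKI 7, HP-AKI 11, HP-AKI 12 or HP-AKI 13 was left out (0.32 to 0.35, adjusted p 0.0718 to 0.0923 in edgeR). It was also lost with another scaling (adjusted p 0.0591 in edgeR) and without the filter on low counts (0.0590). Nr1d2, a heme-binding repressor of the circadian clock with the list's highest CPM averaged over all 12 libraries, fell by 0.53, with overlapping groups. Nr1d1, its relative, stood at 0.53 and did not pass, with an adjusted p of 0.0527 (edgeR). It did pass with DESeq2 (adjusted p 0.0430), with limma (0.0415) and with library size alone (0.0298 in edgeR). It also passed without sham 4 or HP-AKI 8 or 9 (0.70, 0.58 and 0.59). Hsf1 and Eif2ak1, the heme-regulated kinase, were the others of the list that did not pass, at 0.19 and -0.08.

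Of 14 genes of heme scavenging, of enzyme partners and of bilirubin handling, 9 rose and 5 fell, with a median of 0.60, beside 37.7% higher and 35.2% lower among all tested genes. The log2 fold change of Cubn was -3.23 and that of Lrp2 -2.91; they encode cubilin and megalin, the receptors that take filtered proteins into the proximal tubule cell. Lrp2 went from 3740 ± 343 to 497.1 ± 38.3 CPM (SD, n = 6 each). Hp, the hemoglobin-binding haptoglobin, rose from 1.67 ± 1.15 to 13.2 ± 6.95 CPM (SD, n = 6 each). Cd163, the macrophage receptor for the haptoglobin-hemoglobin complex, rose by 2.06 at a low level, from 0.742 to 3.11 CPM. Lrp1, the receptor for hemopexin-bound heme, rose by 1.21, from 36.0 to 83.6 CPM. On the way out of the cell, Abcc2 and Abcc3, exporters of conjugated bilirubin, rose by 1.38 and 2.15, whereas Ugt1a1, which conjugates it, fell by 0.66 and Abcg2, an exporter of porphyrins and heme, by 1.0. Ugt1a1 shares its last exons with the other Ugt1a genes, so its value is uncertain. The calls of Hpx (hemopexin, 0.61), Ambp (0.59) and Por (0.48) had adjusted p values in edgeR of 0.0450, 0.0289 and 0.0426 and were lost without some single libraries. These were sham 1, 2, 5 and 6 and HP-AKI 7, 8, 11, 12 and 13 for Hpx, sham 1, 2 and 3 and HP-AKI 7, 11 and 13 for Ambp, and sham 1, 2 and 3 and HP-AKI 7, 9, 11, 12 and 13 for Por. The call of Hpx was also lost with other scalings (adjusted p 0.0518 and 0.0650 in edgeR) and without the filter on low counts (0.0859). That of Por was lost with another scaling (adjusted p 0.0701 in edgeR) and without the filter (0.0624). Hpx was at 0.545 CPM in sham and 0.834 CPM in HP-AKI. Over 20 alternatives 6 to 9 genes were called higher and 4 to 5 lower. Without sham 1, sham 2 and HP-AKI 8 it was 7 and 5.

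In the synthesis pathway, 6 of 9 genes fell, 1 rose and 2 did not pass, with a median of -0.65, beside 35.2% lower and 72.8% called in either direction among all tested genes. Uros and Cpox, enzymes of the middle and late steps, had log2 fold changes of -2.15 and -1.27, and Urod, Alad, Ppox and Fech were also lower. Alas1, the rate-limiting first enzyme outside red cells, rose from 118.5 ± 23.4 to 244.8 ± 90.4 CPM (SD, n = 6 each), with overlapping groups and an adjusted p of 0.000565 (edgeR).

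For the iron that heme oxygenase releases, 6 of 15 tested genes rose, 7 fell and 2 did not pass, with a median of -0.18, and Hamp was too rare to test. Of all tested genes 37.7% were higher, which is near the 6 of 15, and 35.2% were lower. Of the ferritin chains, Ftl1 rose from 844.9 ± 322.8 to 2270 ± 742 CPM (SD, n = 6 each), with overlapping groups and an adjusted p of 0.000329 (edgeR), and Fth1 by 1.35 on the log2 scale. Ferritin genes have near-identical pseudogenes, so their counts carry that uncertainty. Slc39a14, which imports iron that is not bound to transferrin, rose from 64.5 to 206.7 CPM (1.68 ± 0.11). Slc39a8, of the same family, fell from 108.3 to 42.5 CPM (-1.35 ± 0.17). Tfrc and Slc11a2, which also serve iron uptake, fell by 1.25 and 1.19. Slc40a1 (ferroportin), which exports iron from cells, stood at -0.18 and did not pass, but did so without HP-AKI 8 (-0.32, adjusted p 0.00668 in edgeR). Examples in these 4 lists beyond those of the rule given under processing were chosen after their values were seen.

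Markers of kidney cell types moved with the groups too. All 8 proximal tubule markers fell, with a median of -1.98 on the log2 scale, and their summed level was 9395 to 11746 CPM in sham and 1903 to 3141 CPM in HP-AKI. Lrp2 and Cubn are on this list and on that of heme scavenging. The part of this in the lower levels of Blvra, Flvcr2, Slc46a1 and Hebp1 was not tested. Of 10 macrophage and monocyte markers 4 rose, among them Cd68, Cd14 and Cd163, and 4 fell, among them Adgre1 and Csf1r, and the summed level was 111.8 to 155.7 CPM in sham and 121.0 to 179.1 CPM in HP-AKI. All 5 tested neutrophil markers rose, from a sum of 1.88 to 3.49 CPM to one of 18.2 to 150.4 CPM, while Ly6g was too rare to test. The part of these cells in the rise of Hmox1, Blvrb, Flvcr1 and Slc48a1 was not tested. The 4 skeletal muscle markers, among them myoglobin (Mb), were too rare to test, with sums of at most 0.761 CPM. Beside the same shares of all tested genes, 37.7% higher and 35.2% lower, higher against lower calls in the remaining lists were 3 and 0 of 4 for endothelium, 3 and 0 of 4 for fibroblasts and pericytes, 2 and 1 of 3 for podocytes, and 1 and 0 of 3 for fat and adrenal gland. Umod (0.25) was the only gene called higher in the thick ascending limb and distal tubule list. Its call and that of Dcn in fibroblasts (0.29) were lost in 13 and 14 of 20 alternatives. Higher against lower calls were 1 and 3 of 4 for the thick ascending limb and distal tubule, 0 and 3 of 5 for the collecting duct and 0 and 4 of 5 for lymphocytes.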

How the data were processed

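Counts deposited by the authors are raw whole-number counts per gene, 1 column a library, for 6 sham and 6 HP-AKI kidney samples. RPKM values deposited by the authors are per kilobase of the listed length and per sample total. That total was 2.98 to 3.47 times the sum of the counts, so they served only as an alternative for ratios. The labels' protocols give Trizol and a Qiagen kit for the RNA and TruSeq RNA v2 for the libraries. Tools named in the submitters' processing notes, without roles, are featureCounts, edgeR and TopHat2 2.1.0, with the build GRCm38. No library pair held identical values.

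Counts were tested with edgeR 4.0.16 in R 4.3.3 (filterByExpr, TMM, quasi-likelihood F-test, two-sided, Benjamini-Hochberg over 17470 genes). The SE is the fold change divided by the square root of F, and intervals of 95% use 10 degrees of freedom. CPM values were computed with the TMM factors. The log2 fold changes had a median SE of 0.141, and the common biological coefficient of variation came to 0.178. Ratios within libraries (0.5 added to each count) and correlations of log2 CPM (prior count 2) were tested by exact permutation over libraries. Alternatives were other scalings, filters and tests (DESeq2 1.42.0, limma 3.58.1), leaving out libraries, and, for ratios, RPKM. The steps were also tested on simulated data.

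The 10 genes and all lists were chosen with earlier results of these data known. Besides the 10 genes, the text names from each of 4 lists the 2 called genes with the largest change and the gene with the highest mean, and the 5 genes most like Hmox1 with a mean of at least 5 CPM. Of 121 distinct listed genes, 117 matched by symbol, 3 by identifier under an older symbol, and 1 (Ahsp) did not match. Single values of some list genes are not reported here. Promoter windows are from RefSeq (GRCm38.p6), and overlaps and exon lengths from GENCODE vM21. Exon lengths were used as an alternative added after the data were seen. Tables and figures were made in Python 3.11.15 (numpy 2.4.6, pandas 2.3.3, scipy 1.17.1, matplotlib 3.10.9).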

Additional observations from a re-analysis of the deposited data

Results flagged for a closer look

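Among 32 sets of 6 libraries examined, 3 held a library apart from the others of its group, by Dixon's gap test at its 95% critical value. Chance gives about 1 such set in 20. Flvcr1 in sham 2 was at 43.8 CPM, and the next highest sham value was 33.9 CPM. Flvcr1 in HP-AKI 8 was at 98.4 CPM, with 76.3 CPM as the next highest. The log2 ratio of Flvcr1 to Flvcr2 in sham 2 was 0.56, with 0.03 as the next highest, and it shares the Flvcr1 value with the first of these. Sham 2 and HP-AKI 8 are also at 1 end of the second principal component, and without them and sham 1 the means of Flvcr1 differed 2.26-fold, against 2.24-fold with all libraries.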

How the results depend on the processing

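The 10 log2 fold changes kept their direction where they had passed the test, and their side of the threshold, in all 200 values from 20 alternatives, and 4 higher and 4 lower genes were called in each. Hmox1 ran from 6.69 to 7.02 on the log2 scale, and from 6.77 to 6.97 when single libraries were left out. Genes that did not pass had no fixed sign, Hmox2 running from -0.06 to 0.11 and Pgrmc1 from -0.15 to 0.06. Calls over all tested genes ran from 11163 (at least 1 CPM in 6 samples) to 14633 (no filter), from 12412 to 12961 with single libraries left out, and were 13430 without sham 1, sham 2 and HP-AKI 8. The TMM factors were 0.905 to 0.993 in sham and 1.027 to 1.068 in HP-AKI, so the scaling differed with the group. Library size alone moved the median of all tested genes from 0.04 to 0.16, so changes of that size depend on the scaling. The 0.11 of Hmox2 came from library size alone (adjusted p 0.141 in edgeR). The 6 ratios held in 14 alternatives each, with exact permutation p values adjusted over the 6 of at most 0.00794. Except for Pgrmc1 to Pgrmc2, this follows largely from the separation of the single genes. No paired analysis was possible because the groups share no sample numbers. The fewest counts of any of the 10 genes in a library were 61, for Blvrb in sham. In the marker lists a stricter or looser filter also changes how many genes are tested, so that 1 to 5 lymphocyte and 4 to 6 neutrophil markers were called.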
